A study of Procambarus virginalis and Procambarus fallax with 9 samples.

Results

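The hepatopancreas of the marbled crayfish, Procambarus virginalis, was compared with the abdominal musculature of its sexually reproducing relative, Procambarus fallax. The comparison takes the 3 hepatopancreas libraries of P. virginalis animals 2, 6 and 7 and the 3 muscle libraries of P. fallax animals 1, 3 and 4, which are 6 of the 9 RNA-seq libraries of the series, and the groups follow from species, tissue and animal in the sample titles. The P. virginalis animals belonged to the Heidelberg laboratory strain, a parthenogenetic and clonal line. The P. fallax animals were females from an aquarium supplier, and the sources used here give no ages. No treatment was applied in any group. Each library is 1 tissue of 1 animal, and total RNA was sequenced from both ends. The remaining 3 libraries, abdominal musculature of the same P. virginalis animals, serve as a reference for the species. Because no animal and no species is shared between the groups, tissue, species and origin of the animals change together and cannot be told apart in this comparison. The question it addresses is which differences between hepatopancreas and muscle are found when the muscle comes from a separate species.

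The hepatopancreas is the digestive gland of decapod crustaceans. It secretes digestive enzymes into the gut, takes up the products and stores lipids and metals. The abdominal musculature is striated muscle that drives the tail flip, and its RNA is known to be dominated by transcripts for contractile proteins and for the enzymes that supply them with energy. In tissue samples, fewer cells of a type and less RNA per cell cannot be told apart. The files list 21773 gene models under scaffold-based identifiers that carry no gene names, so digestive or contractile markers could not be looked up, no function is given for any gene below, and identifiers are printed only for the 4 genes taken by rule and for 1 gene that both tissues share.

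Total expected counts, the fragments assigned to gene models, ranged from 12947418 to 67369392 in the hepatopancreas and from 9109577 to 11942816 in P. fallax muscle. Between 6635 and 8091 genes reached 1 TPM, a length-corrected level scaled to the same sum in every library, in a hepatopancreas library, against 4552 to 5875 in a P. fallax muscle library. Spearman's rho of TPM across the genes with a mean of at least 1 TPM lay between 0.81 and 0.90 for pairs of hepatopancreas libraries, between 0.76 and 0.85 for pairs of P. fallax muscle libraries, and between 0.25 and 0.47 for pairs across the comparison. With the muscle libraries of P. virginalis, the P. fallax libraries gave values between 0.70 and 0.86. These are correlations across genes, which are not independent replicates, and they place the P. fallax libraries with muscle. The library of P. fallax animal 3 stood apart from the others in some measures. Its rho with the P. virginalis muscle libraries was 0.70 to 0.79, against 0.81 to 0.86 for animals 1 and 4. It was the lowest P. fallax library for 9 of the 10 muscle genes chosen in P. virginalis below. The 10 most abundant genes of P. fallax muscle took no smaller share of its TPM, at 62.8% against 60.8% and 56.6% in animals 1 and 4. The library of animal 3 also held low levels of hepatopancreas genes that were at or near 0 in the other muscle libraries. Results without it are given only where this is said, and all others that use P. fallax muscle include it.

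A large share of the genes tested differed between the tissues, and more of them were higher in the hepatopancreas. With edgeR's quasi-likelihood test and Benjamini-Hochberg adjustment, 2385 of 6655 genes had an adjusted p under 0.05, which is 35.8% of the genes tested. Of these, 1592 (23.9% of those tested) were higher and 793 (11.9%) were lower in P. virginalis hepatopancreas than in P. fallax muscle. The median log2 difference of the called genes was 4.14 among the higher and -2.97 among the lower, and 644 higher and 208 lower genes differed by more than 5 on the log2 scale. Differences of more than 10 were found for 142 higher and 57 lower genes. In counts per library size (CPM), 3189 genes (47.9%) showed no overlap between the tissues, 2628 of them (39.5%) higher and 561 (8.43%) lower in the hepatopancreas. CPM leaves out the scaling factors that the test used, so this split follows a different scaling from the 1592 and 793. The counts were similar without P. fallax animal 3, where 2499 of 7443 genes were called. Of the 2385 genes, 2092 were called again, none with the opposite sign, in a fit that shares all other libraries.

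**Figure D1:**
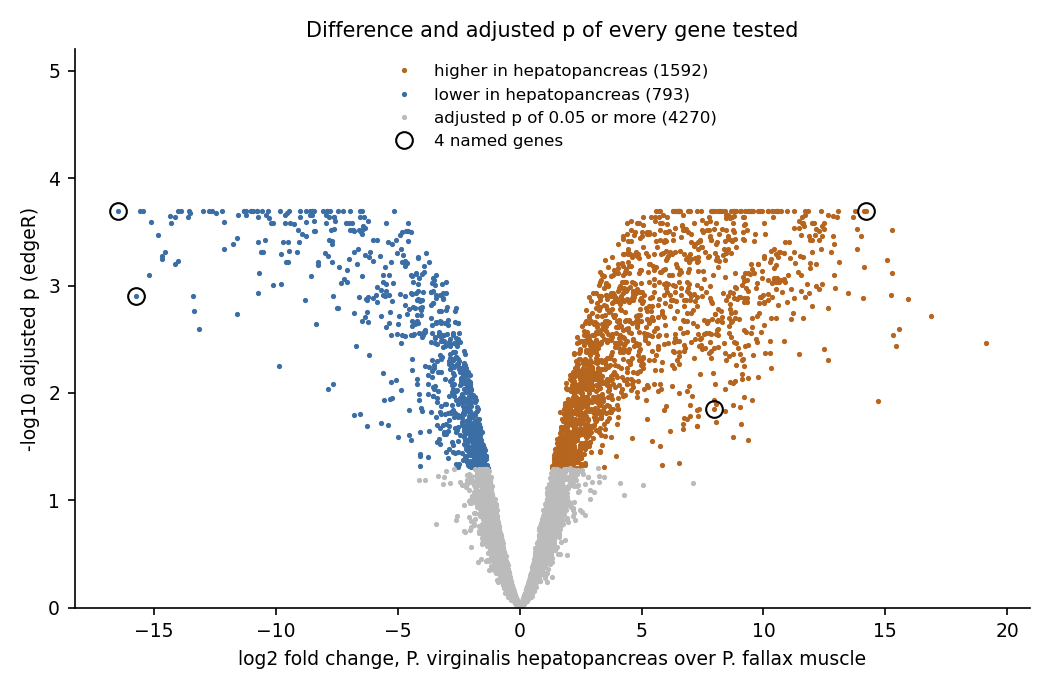
Log2 fold change of P. virginalis hepatopancreas over P. fallax muscle (x axis) against -log10 of the adjusted p from edgeR (y axis) for each of the 6655 genes tested. Brown points are the 1592 genes higher and blue points the 793 genes lower in the hepatopancreas, grey points were not called, and circles mark the 4 named genes, 2 at each side.

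The split between higher and lower genes depended on how libraries were scaled. The TMM factors used here assume that most genes do not differ, and with them the median log2 difference of all genes tested was 0.20. With library sizes alone this median moved to 0.82, and 1845 genes were higher and 429 lower, so that 81.1% of the called genes were higher, against 66.8% with TMM factors. Directions are therefore relative to this scaling. None of the 2017 genes called under both scalings changed sign. Read length also differed between libraries, since animals 2 and 6 of P. virginalis had shorter reads than animal 7 and the P. fallax animals. Among the libraries with the longer reads, the hepatopancreas of animal 7 against the 3 P. fallax libraries, 979 of 7311 genes were called, 747 higher and 232 lower. In that fit the single hepatopancreas library is assumed to vary as the P. fallax libraries do. The fits in this paragraph reuse libraries of the main test, so the signs of shared calls are no separate support.

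The most abundant gene among those higher in the hepatopancreas without overlap between libraries was evm-scaffold16910-processed-gene-0.0, a model of 778 nt. Its level was 32451 TPM in animal 2, 78176 TPM in animal 6 and 74599 TPM in animal 7 of P. virginalis, against 2.59 TPM in animal 1, 357 TPM in animal 3 and 6.86 TPM in animal 4 of P. fallax. All hepatopancreas libraries were far above all muscle libraries, and P. fallax animal 3 was above the other muscle libraries. The means were 61742 ± 25430 TPM in the hepatopancreas and 122 ± 203 TPM in P. fallax muscle (SD, n = 3 each). The log2 fold change was 7.96 (SE 2.12, adjusted p = 0.0140, edgeR). Without P. fallax animal 3 it was 13.22 with an adjusted p of 0.000184, while it lay between 7.26 and 8.31 when any other library was left out. Over 18 alternatives the adjusted p ranged from 2.98e-07 to 0.0413. In P. virginalis muscle the gene had 4.18, 5.55 and 0.72 TPM in animals 2, 6 and 7, and the hepatopancreas was higher there by 12.14 on the log2 scale (SE 1.83, adjusted p = 0.000417, edgeR). Between the muscles the difference was 4.29 on the log2 scale (SE 1.68, P. fallax over P. virginalis), which was not called (adjusted p = 0.541, edgeR).

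The higher gene with the smallest adjusted p, and the largest fold change among those sharing it, was maker-scaffold14435-snap-gene-0.0, a model of 1077 nt. It had 147, 108 and 67.9 TPM in the hepatopancreas of animals 2, 6 and 7 and an expected count of 0 in every muscle library of either species. The hepatopancreas libraries were all well above muscle, with animal 2 the highest and animal 7 the lowest. With 13974 counts in the hepatopancreas against none in P. fallax muscle, it was at least 1580-fold higher by library totals (adjusted p = 0.000203, edgeR). This limit takes a floor of 3 counts over the P. fallax group. It leaves out the scaling factors that the test used and would differ with them. The limit was 930-fold without P. virginalis animal 2, 1000-fold without P. fallax animal 1, 1024-fold without P. fallax animal 4 and 1137-fold without P. fallax animal 3. Against P. virginalis muscle the adjusted p was 4.03e-05 (edgeR). Over 19 alternatives of the comparison with P. fallax muscle the adjusted p ranged from 2.23e-22 to 0.00387.

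The most abundant gene among those lower in the hepatopancreas was maker-scaffold11857-snap-gene-0.30, a model of 1424 nt. It had 0.03, 1.96 and 10.6 TPM in the hepatopancreas of animals 2, 6 and 7, against 100509, 145579 and 127100 TPM in the muscle of P. fallax animals 1, 3 and 4. In P. virginalis muscle it had 110812, 23878 and 65795 TPM in animals 2, 6 and 7. It was high in every P. fallax muscle library, while its low level in the hepatopancreas varied widely between the animals. The log2 fold change was -15.76 (SE 2.65, adjusted p = 0.00124, edgeR) against P. fallax muscle and -15.48 (SE 2.89, adjusted p = 0.00166, edgeR) against P. virginalis muscle. Without hepatopancreas animal 7 the first of these was -17.58, without animal 2 it was -15.16, and it was -15.47 without P. fallax animal 3. Between the muscles the difference was 0.41 on the log2 scale (SE 0.98, P. fallax over P. virginalis), which was not called (adjusted p = 0.969, edgeR).

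The lower gene with the smallest adjusted p, chosen by the same rule for ties, was snap-scaffold265817-processed-gene-0.3, a model of 442 nt. It had 1 count in the hepatopancreas of animal 2 and 0 in animals 6 and 7, against 10056, 6331 and 7083 counts in the muscle of P. fallax animals 1, 3 and 4. These counts correspond to 2977, 1984 and 2023 TPM in P. fallax muscle. P. virginalis muscle had 4427, 2558 and 4970 TPM in animals 2, 6 and 7. All 6 muscle libraries were high, and the ranges of the species overlapped, while no hepatopancreas library held more than the 1 count. The ratio of P. fallax muscle over hepatopancreas by library totals was 69175 (95% exact counting interval from 12414 to 2732380). It leaves out the scaling factors that the test used (adjusted p = 0.000203, edgeR). Without hepatopancreas animal 2 the gene was at least 6844-fold lower in the hepatopancreas, taking the same floor of 3 counts over the group. Between the muscles the difference was -1.29 on the log2 scale (SE 0.69, P. fallax over P. virginalis), which was not called (adjusted p = 0.767, edgeR).

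**Figure D2:**
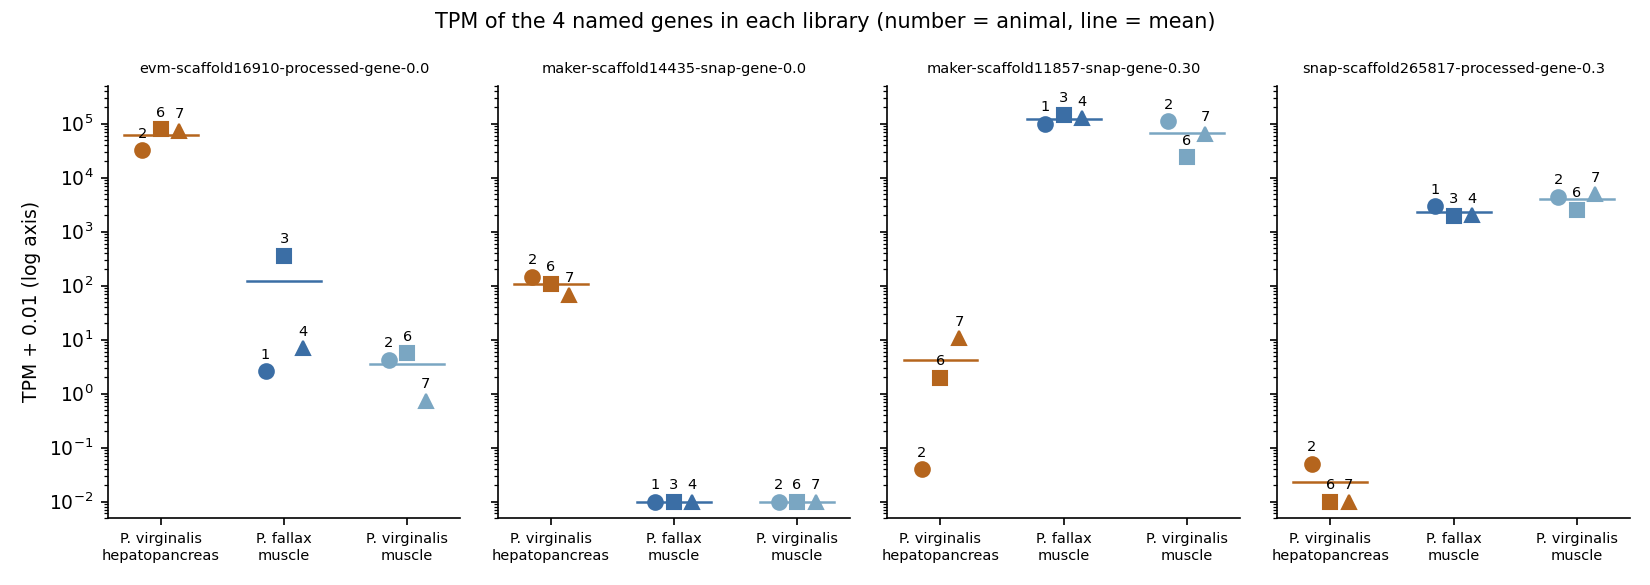
TPM + 0.01 on a log axis (y axis) of the 4 named genes in each library of P. virginalis hepatopancreas, P. fallax muscle and P. virginalis muscle (x axis). Points are libraries with the number of the animal and lines are group means; the hepatopancreas libraries lie apart from all 6 muscle libraries in each panel, and in the first panel P. fallax animal 3, at 357 TPM, lies above the other muscle libraries.

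The comparisons of hepatopancreas with either muscle share the hepatopancreas libraries, so their calls are not independent and are given side by side only. Against P. virginalis muscle 2599 of 6770 genes (38.4%) were called, 1660 higher (24.5%) and 939 lower (13.9%) in the hepatopancreas, by the same test. That test did not use the pairing of these libraries by animal. With animal as a block 2342 genes were called. In the test without the block, leaving out animal 6 gave 601 lower genes. Between the muscles of P. fallax and P. virginalis 63 of 5053 genes (1.25%) were called, 14 higher (0.277%) and 49 lower (0.97%) in P. fallax, and 379 had an unadjusted p under 0.05. That count was 35 without P. fallax animal 4, 39 without P. virginalis animal 7, 40 without P. virginalis animal 6 and 85 without P. fallax animal 1. With all 9 libraries in 1 model, 2829 of 6878 genes differed between the hepatopancreas and the mean of both muscles, 1817 higher and 1012 lower. Of the 4 named genes, 3 were tested between the muscles and none of them was called, while maker-scaffold14435-snap-gene-0.0 had no counts there and was not tested.

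To read tissue genes in samples that had no part in choosing them, genes were chosen in P. virginalis alone and then read in P. fallax muscle. There were 14 genes with at least 100 TPM in every hepatopancreas library and an expected count of 0 in every P. virginalis muscle library. Their summed level was 7816, 6458 and 4892 TPM in the hepatopancreas of animals 2, 6 and 7. In P. fallax muscle it was 0 TPM in animal 1, 23.2 TPM in animal 3 and 0.41 TPM in animal 4. Animal 1 thus had no count for any of the 14 genes, animal 4 had 1 count for each of 2 genes, and animal 3 had 118 counts over 12 genes. A count of 0 in the library of animal 1 allows up to 0.251 CPM for a gene. In animal 3, 10 of the 14 genes reached 1 TPM, while none did in animals 1 and 4. The highest value in animal 3, 3.38 TPM, rested on 1 count, so for that gene 1 TPM is less than 1 count. The gene with the most counts there had 25, at 2.27 TPM. So 4 of the 14 genes (28.6%) were under 1 TPM in every P. fallax library, where 69.7% of all gene models were, and 14 of 14 without animal 3. This share depended on the choice of genes, since with a minimum of 10 TPM in place of 100 it was 106 of 135 (78.5%), above that of all gene models, and with under 1 TPM in place of a count of 0 in P. virginalis muscle it was 20 of 93 (21.5%). In the edgeR fit all 14 genes were called higher, with and without animal 3, but the choice used their hepatopancreas level, and nothing is read from this count.

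The level of hepatopancreas genes in P. fallax animal 3 was a small share of their hepatopancreas level. For the 14 genes it ranged from 0 to 1.70% of the hepatopancreas mean, with a median of 0.39%, and the sum was 0.363% of the hepatopancreas sum. A wider choice, with under 1 TPM in place of a count of 0 in P. virginalis muscle, gave 93 genes. These summed to 184410, 131891 and 84682 TPM in the hepatopancreas of animals 2, 6 and 7, to 24.8, 670 and 34.5 TPM in P. fallax animals 1, 3 and 4, and to 17.3, 12.4 and 8.24 TPM in the muscle of P. virginalis animals 2, 6 and 7. In animal 3 of P. fallax 71 of the 93 genes reached 1 TPM, against 4 in animal 1 and 8 in animal 4, and the summed level was 0.501% of the hepatopancreas mean, against 0.0186% and 0.0258% in animals 1 and 4. For these hepatopancreas genes, the muscle library of animal 3 therefore differed from the other P. fallax libraries by more than these differed from each other. The part that hepatopancreas RNA in this library had in these values was not tested. The TMM factors did not set animal 3 apart, at 0.54, 0.72 and 1.24 for P. fallax animals 1, 3 and 4. For the 100 most abundant hepatopancreas genes, the median log2 fold change over P. fallax muscle was 2.16 with all libraries and 2.56 without animal 3. Over all 6655 genes the median was 0.20 with all libraries and 0.19 without animal 3.

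Muscle genes chosen in the same way were also high in the muscle of P. fallax. There were 10 genes with at least 100 TPM in every P. virginalis muscle library and under 1 TPM in every hepatopancreas library. They summed to 2.04, 2.08 and 2.69 TPM in the hepatopancreas of animals 2, 6 and 7, against 21378, 12487 and 23929 TPM in the muscle of P. fallax animals 1, 3 and 4. In P. virginalis muscle they summed to 22291, 12876 and 21963 TPM in animals 2, 6 and 7, a range that overlapped with that of P. fallax. All 10 genes were detected in every P. fallax library, and 9 of 10 (90%) had at least 100 TPM in each, where 0.886% of all gene models had. The remaining gene had 460, 78.8 and 464 TPM in animals 1, 3 and 4. For 9 of the 10 genes animal 3 had the lowest level of the P. fallax libraries. With the minimum set at 10 TPM there were 49 such genes. All 49 reached 1 TPM in every P. fallax library, where 16.6% of all gene models did, and 32 reached 10 TPM in each. The share of all gene models at 10 TPM was not made, nor was the count of 32 without animal 3. The median of the 49 genes was 89.3, 23.0 and 68.6 TPM in P. fallax animals 1, 3 and 4.

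**Figure D3:**
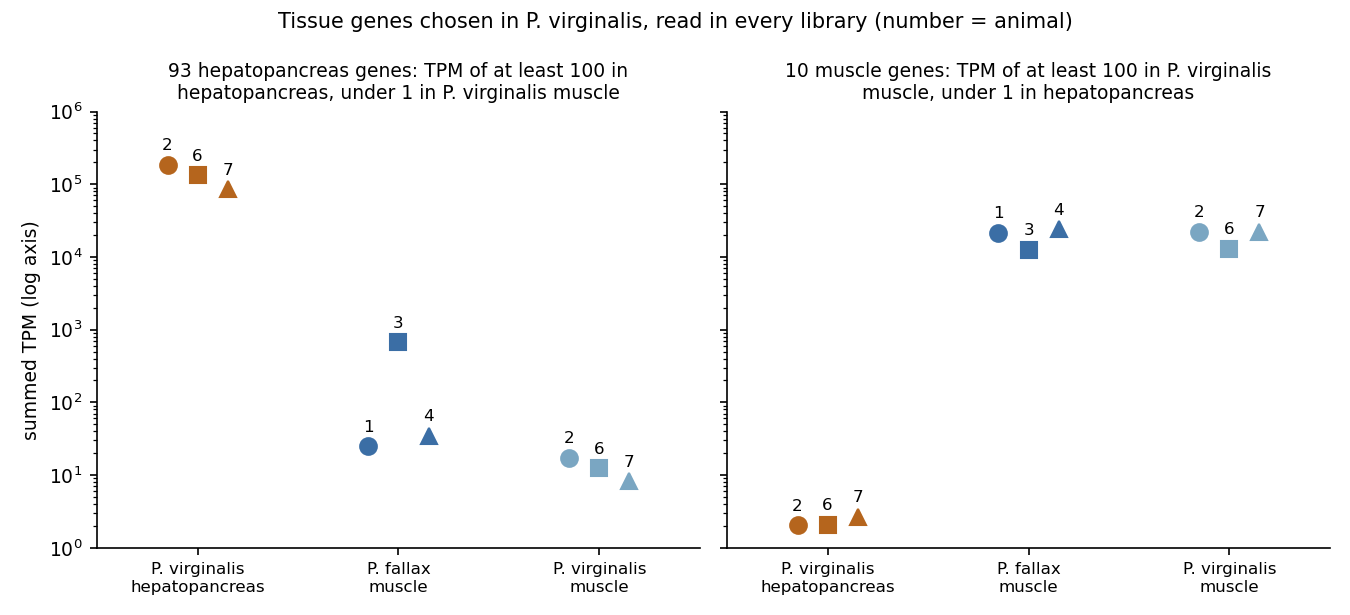
Summed TPM on a log axis (y axis) of 93 hepatopancreas genes (left) and 10 muscle genes (right), both chosen in P. virginalis, in each library of P. virginalis hepatopancreas, P. fallax muscle and P. virginalis muscle (x axis), with the number of the animal over each point. P. fallax animal 3, at 670 TPM, lies above the other muscle libraries on the left, and the muscle libraries of the species overlap on the right.

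A few genes made up much of the RNA of each tissue. The 10 genes with the highest mean TPM in the hepatopancreas took 30.3%, 33.2% and 39.8% of the TPM of animals 2, 6 and 7. The 10 highest in P. fallax muscle took 60.8%, 62.8% and 56.6% in animals 1, 3 and 4. One gene, evm-scaffold1419-processed-gene-1.25, was in both lists and is named here because of it, after its values were seen. It had 27033, 52141 and 55517 TPM in the hepatopancreas, against 3437, 18190 and 24220 TPM in P. fallax muscle, and 1565, 1906 and 3301 TPM in P. virginalis muscle. Its log2 fold change over P. fallax muscle was 0.94 and was not called (adjusted p = 0.486, edgeR). Without it, the other 9 hepatopancreas genes took 27.6%, 28.0% and 34.2% of the TPM in the hepatopancreas, against 0.00106%, 0.0838% and 0.00130% in P. fallax animals 1, 3 and 4. The other 9 muscle genes took 0.0474%, 0.0982% and 0.0687% in the hepatopancreas, against 60.5%, 61.0% and 54.1% in P. fallax muscle. These 9 and 9 genes were all called in the direction of their tissue, which the choice by level favours, so nothing is read from it.

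The lists of the 100 most abundant genes of each tissue shared 48 genes. Of the 100 hepatopancreas genes 50 were called higher and 0 lower, and of the 100 muscle genes 39 were called lower and 0 higher in the hepatopancreas, beside 23.9% higher and 11.9% lower over all genes tested. The choice by level favours these directions too, and nothing is read from the counts. The 100 hepatopancreas genes took 73.8%, 75.2% and 75.4% of the TPM in the hepatopancreas of animals 2, 6 and 7, against 10.2%, 18.1% and 17.3% in P. fallax animals 1, 3 and 4. Some abundant genes of either group were near absent in the other. Of 525 genes with a mean of at least 100 TPM in the hepatopancreas, 107 (20.4%) had a mean under 1 TPM in P. fallax muscle, and of 324 such genes of P. fallax muscle, 26 (8.02%) had a mean under 1 TPM in the hepatopancreas. At a mean of at least 1000 TPM, 18 of 142 hepatopancreas genes and 6 of 106 muscle genes were under 1 TPM in the other group. The difference between these shares was not tested, and the hepatopancreas libraries were the deeper ones. The P. fallax means include animal 3, and these counts were not made without it. The hepatopancreas gene ranked 3 by mean TPM had 0, 24.4 and 0.71 TPM in P. fallax animals 1, 3 and 4. Its mean was above 1 TPM through animal 3 alone.

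Calls are given by level as a description only. When genes were grouped by the larger of the group means of TPM, which a difference itself raises, 5.83% of the genes below 1 TPM were called higher and 4.48% lower in the hepatopancreas. Between 10 and 100 TPM these shares were 32.5% and 15.3%, and between 100 and 1000 TPM they were 43.9% and 18.3%. From 1000 TPM upward 36.9% were higher and 21.9% lower. The higher genes outnumbered the lower ones in each of these classes.

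**Figure D4:**
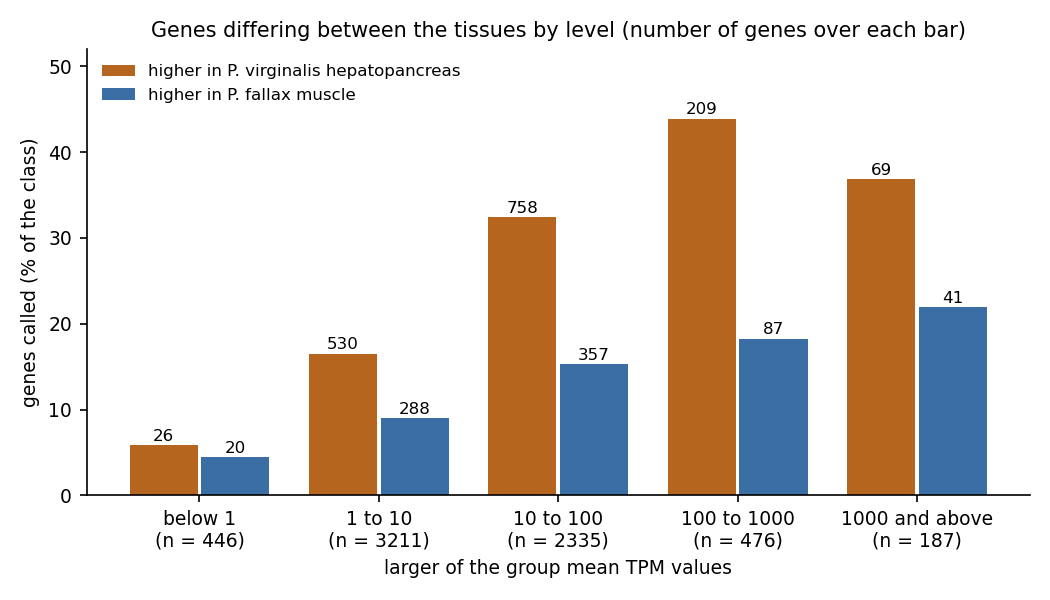
Share of genes called by edgeR (y axis, % of the class) by the larger of the group means of TPM (x axis). Brown bars are genes higher in P. virginalis hepatopancreas and blue bars genes higher in P. fallax muscle, with the number of genes over each bar; the brown bar is the taller in every class.

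Some genes were detected in 1 group of this comparison only, which differ in species as well as tissue. There were 192 genes with at least 10 counts in every hepatopancreas library and an expected count of 0 in every P. fallax muscle library, and 16 genes with the reverse pattern. The 192 genes had mean levels of up to 3238 TPM in the hepatopancreas. Depth differed between the groups, and after thinning all 6 libraries to the smallest total the counts were 143 and 28. Without P. fallax animal 3 the first count was 391, and without P. virginalis animal 2, the deepest library, the second was 39. The P. virginalis muscle libraries had no part in this choice. All of the 16 genes were detected in each of them, where between 38.9% and 40.7% of all gene models were. Of the 192 genes, 41, 38 and 44 were detected in the muscle of P. virginalis animals 2, 6 and 7. The 16 genes had to be counted in all P. fallax muscle libraries and the 192 in none, unlike the gene models at large. The choice by P. fallax muscle thus favours both outcomes in P. virginalis muscle, and nothing is read from them.

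The length of the gene model, which the comparison did not use, went with the direction of the difference. In the quintile of shortest models, from 141 to 680 nt, 34.8% of genes were called higher and 7.58% lower in the hepatopancreas, and the median log2 difference of all genes was 0.89. In the quintile of longest models, from 2683 nt, the shares were 15.5% and 13.9%, and the median was 0.02. The shortest quintile exceeded the longest by 0.87, and by between 0.74 and 1.66 in all alternatives except the limma fit that kept every gene detected, where the difference was -0.10. With the longer reads only it was 0.74, and without P. fallax animal 3 it was 1.15. The identifiers also give the kind of gene model, and the kinds passed the filter on low counts to unequal extents, from 8.79% of the est2genome models to 69.2% of the evm models, so that their shares are over differently selected genes. Of 229 models of the est2genome kind, 38.4% were higher and 6.55% lower, and of 41 of the protein2genome kind, 12.2% were higher and 2.44% lower. The snap, snap_masked and maker snap kinds had between 22.6% and 31.7% higher and between 7.65% and 13.8% lower. Of 1459 models of the evm kind, 16.4% were higher and 13.2% lower, with a median of -0.19.

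**Figure D5:**
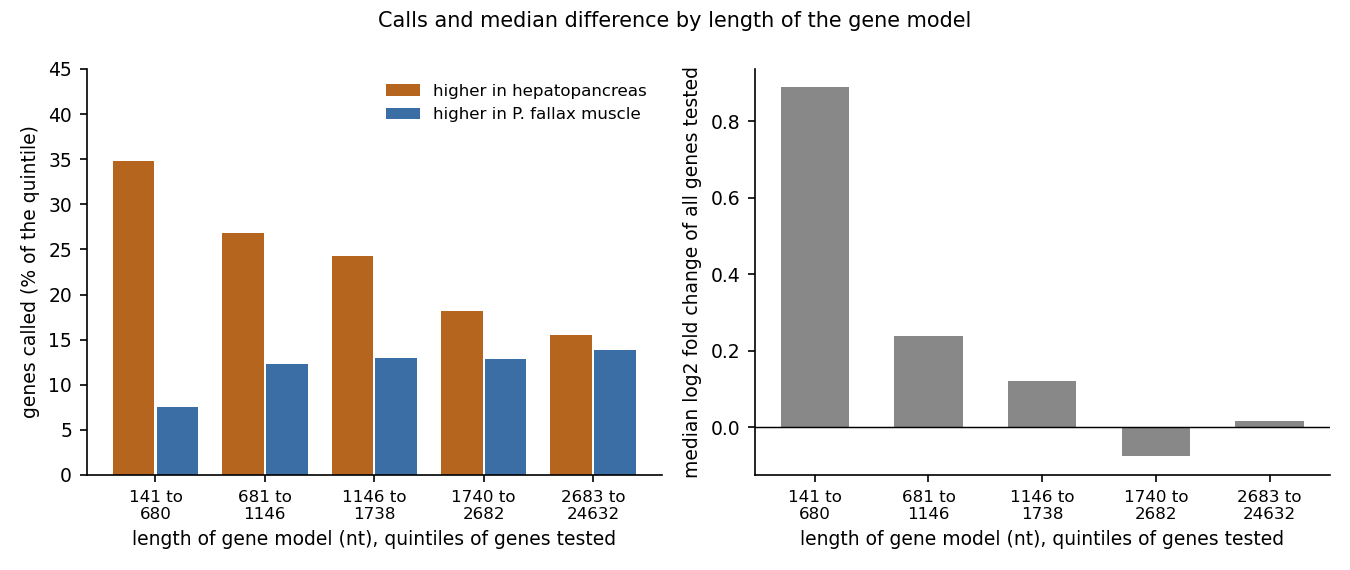
Share of genes called (left, % of the quintile) and median log2 fold change of all genes tested (right), both by quintile of the length of the gene model in nt (x axes). Brown bars are genes higher in P. virginalis hepatopancreas and blue bars genes higher in P. fallax muscle; the share higher falls from 34.8% in the shortest to 15.5% in the longest quintile.

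Called genes that lay on the same scaffold often changed in the same direction. There were 302 scaffolds with at least 2 called genes, and in 205 of them (67.9%) all called genes had the same sign. No share for genes grouped without regard to scaffold was made beside the 67.9%. Of 621 pairs of called genes on a scaffold, 72.9% had the same sign, where 55.6% of all pairs of called genes did. Pairs are not independent of each other, and the difference between these shares was not tested.

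The 4270 genes that were not called cannot be taken as alike in the tissues. The 95% interval of the log2 difference had a median half-width of 1.31 for them, and for only 2 of the 6655 genes did it lie within 1 of 0. The biological coefficient of variation between animals, from the common dispersion that edgeR estimates within a group, was 0.49 over the hepatopancreas libraries and 0.66 over the P. fallax muscle libraries, with 0.53 over those of P. virginalis muscle. The samples of a group are separate animals, of a clonal line in P. virginalis and of a sexually reproducing species in P. fallax. Read length also differed between the P. virginalis animals, and 3 animals a group limit these estimates.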

How the data were processed

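Gene-level RSEM tables of 9 libraries were used, 6 of them in the main comparison. The expected counts were deposited by the authors without normalization, and the TPM columns were likewise deposited by the authors as RSEM wrote them. The submitters' processing notes name HISAT2 2.0.4 and RSEM 1.2.30, while the genome build was not given in the sources used. Reads of P. fallax were assigned to P. virginalis gene models. The series text counts 2 P. fallax individuals, the titles 3, which is the number used here. Gene lengths (nt) are those of the hepatopancreas file of animal 2.

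Expected counts were rounded and tested with edgeR 4.0.16 in R 4.3.3 (quasi-likelihood test, TMM factors, the filterByExpr filter, and a threshold of 0.05 on the Benjamini-Hochberg adjusted p), using only libraries of the groups compared in the fit. Standard errors are the fold change divided by the square root of F. Counting intervals (95%, exact) and floors (3 counts) cover counting error only. Both use library totals without TMM factors. Alternatives used DESeq2 1.42.0, limma 3.58.1 on log2(TPM + 1) and log2(TPM + 0.1), and Python 3.11.15. Members, lists and tests were chosen with earlier results of these data known. Named genes were, in each direction, the called gene without overlap between libraries that had the largest mean TPM in its own tissue and the one with the smallest adjusted p (ties by fold change). Hepatopancreas and muscle samples of P. virginalis that share a number are from 1 animal by their titles, and their deviations correlated with r = -0.0801, 0.215 and -0.00565 for animals 2, 6 and 7.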

Additional observations from a re-analysis of the deposited data

How the results depend on the processing

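For P. virginalis hepatopancreas against P. fallax muscle, 18 of 19 alternatives kept the count of called genes within 1.5 times of 2385, and shared calls never changed sign. These alternatives reuse the same libraries, so the signs are no separate support. With the longer reads only, 979 genes were called, 747 higher and 232 lower. The lower genes, 793 in the report, numbered 1240 with DESeq2, 429 with library sizes alone, 428 and 421 with limma on log2(TPM + 1) and log2(TPM + 0.1), and 298 with limma for a mean TPM above 0. With 1 library left out, 1921 to 2499 genes were called, 1336 to 1675 higher and 547 to 834 lower. The 4 named genes kept direction and call in every alternative in which they were tested. The replicate block by animal gave 2342 in place of 2599 genes against P. virginalis muscle and changed the call of none of the 4. Leaving out 1 animal there gave 1852 to 2526, with 601 to 990 lower. Between the muscles it gave 35 to 85 genes, 5 to 25 higher and 24 to 60 lower. Of hepatopancreas genes, 28.6% were under 1 TPM in every P. fallax library; this was 78.5% with a minimum of 10 TPM and 28.6% to 100% with 1 library left out. No gene passed a minimum of 1000 TPM. For muscle genes the 90% at the minimum became 65.3% at 10 TPM, 100% at 1000 TPM, and 90% to 100% with 1 library left out. Of the groups compared, genes in P. fallax muscle only numbered 28 after thinning and 16 to 39 with 1 library left out. Those in hepatopancreas only numbered 194 to 391 with 1 library left out. Intervals within 1 of 0 were found for 1 gene with RLE factors or no filter, 0 with library sizes alone or longer reads, 16 with 9 libraries in the model, 109 against the mean of both muscles, and 0 to 1 with 1 library left out. The excess of the shortest over the longest quintile, 0.87, was 1.66 without a filter, 1.24 with log2(TPM + 0.1), -0.10 for a mean TPM above 0, and 0.75 to 1.17 with 1 library left out. By counts in place of TPM, chosen after seeing the data, the top 10 took 29.2% in hepatopancreas in place of 34.4% and 47.3% in P. fallax muscle in place of 60.1%.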

Other observations

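The hepatopancreas libraries of the clonal animals were themselves uneven for some abundant genes. Of the 100 most abundant hepatopancreas genes, 5 had a level in animal 2 below a hundredth of the lower of animals 6 and 7. Together they held 107 TPM in animal 2, 84486 TPM in animal 6 and 161353 TPM in animal 7, against 1.01, 1.34 and 0.77 TPM in the muscle of P. fallax animals 1, 3 and 4. The remaining 95 genes held 738283, 667555 and 592419 TPM in the hepatopancreas of animals 2, 6 and 7. These 5 genes were chosen after their values were seen, and they did not share the higher level that P. fallax animal 3 had for the hepatopancreas genes described in the report.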
